A study of Homo sapiens with 24 samples.

Results

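The activator protein 1 (AP-1) family was followed here as 10 genes, FOS, FOSB, FOSL1, FOSL2, JUN, JUNB, JUND, BATF3, JDP2 and MAFF, looked up by Ensembl identifier among the 60279 genes counted in each of 24 libraries. All 10 were among the 19997 genes that entered the tests, which averaged 5 or more counts per library. The libraries were strand-specific poly(A) RNA sequencing libraries from SW872, an established human liposarcoma cell line, stably transduced by retrovirus and kept as drug-selected pools rather than single clones. The 8 groups held 3 libraries each, made from separate transductions. The proteins were Flag-tagged and driven from the retroviral vector.

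EV cells carried the empty vector. TAZ-CAMTA1 and YAP-TFE3 cells expressed the fusion proteins of epithelioid hemangioendothelioma, a vascular sarcoma, in which the N terminus of TAZ or YAP is joined to the C terminus of CAMTA1 or TFE3. TAZ4SA and YAP5SA cells expressed full-length TAZ or YAP with alanines in place of serines that the LATS kinases of the Hippo pathway phosphorylate, so that these proteins escape that control. TFE3 cells expressed the full-length TFE3 transcription factor. These 6 groups were collected 48 h after the cells had become confluent. CAMTA1 cells, with full-length CAMTA1, and a separate empty vector set, here called EVsub, were collected before confluence. All groups thus shared the same cell line and vector, and the effect of CAMTA1 was read against EVsub. Where a group mean of CAMTA1 or EVsub is set beside that of a confluent group with another construct, construct and density cannot be told apart. EV and EVsub both carried the empty vector and were collected at different density. The comparisons asked how each construct moved the AP-1 genes, whether a fusion differed from the mutant form of its own N-terminal parent, and how sub-confluent cells differed from confluent ones.

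AP-1 is a dimer of basic leucine zipper (bZIP) proteins. FOS proteins cannot pair with themselves and bind DNA as heterodimers with JUN proteins, whereas JUN proteins can also pair with each other. JDP2 and BATF3 pair with JUN proteins and lack the strong activation domains of FOS and JUN, and MAFF is a small MAF protein, a zipper factor without its own activation domain that pairs with other bZIP proteins. FOS, FOSB, JUN and JUNB are classical immediate early genes that serum and growth factors switch on within minutes, while FOSL1 and FOSL2 follow later and last longer. At enhancers, AP-1 often sits beside the TEAD factors through which YAP and TAZ reach DNA.

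The RefSeq promoter table (GRCh38.p14) held 8 of the 10 genes, all but FOSL1 and BATF3, at 11 start sites. The 250 bases before each start were searched on both strands for the AP-1 element TGACTCA, the CRE element TGACGTCA, the JUN promoter variant TGACATCA, the TEAD element GGAATG, the E-box CACGTG that TFE3 and its relatives bind, and the CArG box of serum response factor. These letter strings do not contain each other. Of the 11 windows, 5 held a match, and the 4 windows below are shown because they hold matches upstream of genes that moved in the comparisons, with the matched letters in capitals. Each runs 5′ to 3′ on the strand of the gene.
JUN, chr1:58784048-58784297, minus strand: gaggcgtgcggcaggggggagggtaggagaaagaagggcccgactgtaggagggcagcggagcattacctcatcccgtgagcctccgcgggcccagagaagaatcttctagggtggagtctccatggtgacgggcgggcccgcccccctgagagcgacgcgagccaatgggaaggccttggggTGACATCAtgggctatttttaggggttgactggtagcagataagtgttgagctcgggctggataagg
JUND, chr19:18281623-18281872, minus strand: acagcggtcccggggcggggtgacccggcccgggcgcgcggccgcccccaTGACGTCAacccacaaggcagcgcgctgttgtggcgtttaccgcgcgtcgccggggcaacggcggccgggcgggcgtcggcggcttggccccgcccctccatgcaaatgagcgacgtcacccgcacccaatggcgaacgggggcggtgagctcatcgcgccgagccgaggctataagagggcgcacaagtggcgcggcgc
JDP2, start site 2, chr14:75427772-75428021, plus strand: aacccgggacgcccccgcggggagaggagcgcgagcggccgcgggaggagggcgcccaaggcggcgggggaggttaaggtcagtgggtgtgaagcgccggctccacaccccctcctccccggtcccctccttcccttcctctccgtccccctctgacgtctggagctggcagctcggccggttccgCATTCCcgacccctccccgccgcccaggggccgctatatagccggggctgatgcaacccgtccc
MAFF, start site 1, chr22:38201744-38201993, plus strand: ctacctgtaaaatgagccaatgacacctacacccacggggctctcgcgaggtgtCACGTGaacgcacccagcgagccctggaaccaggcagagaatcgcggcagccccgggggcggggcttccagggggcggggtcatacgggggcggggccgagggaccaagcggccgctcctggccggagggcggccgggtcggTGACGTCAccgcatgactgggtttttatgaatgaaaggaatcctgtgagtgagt

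JUN held TGACATCA ending 59 bases before its start, a string found in 2.37% of all 35116 promoter windows of this length. JUND and MAFF each held the CRE string, which 1.65% of all windows held. JDP2 held the TEAD string on the opposite strand, ending 58 bases before its second start, against 11.9% of all windows. Both MAFF starts held CACGTG, against 6.34% of all windows. TGACTCA (4.2% of all windows) and the CArG box (1.16%) were in 0 of the 11 windows. A match is a string of letters and not a shown binding site, and the absence of a match says only that the letters were not in this window.

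Library totals ranged from 19700277 to 35287476 counts, and levels are given as CPM, counts divided by the TMM-scaled size of the library. FOSB was the shallowest gene, with 10 to 86 counts per library, and FOS had 20 to 456, while FOSL2 never fell below 2052. The construct genes were checked first. CAMTA1 was 144.1 CPM in TAZ-CAMTA1 and 123.5 CPM in the sub-confluent CAMTA1 cells against 21.4 in EV. In CAMTA1 against EVsub, at matched density, 1 of the 4 construct genes was called, higher by 2.43 on the log2 scale. TFE3 was 336.2 CPM in TFE3 and 283.0 CPM in YAP-TFE3 cells against 119.3 in EV, and YAP1 was 253.0 CPM in YAP5SA cells against 127.7 in EV. WWTR1, the gene of TAZ, was 134.2 ± 0.538 CPM (SD, n = 3) in the libraries labelled TAZ4SA against 204.0 ± 20.3 in EV. It was lower by 0.60 ± 0.08 (SE) on the log2 scale, so these counts do not bear out that label. The paper shows a western blot for Flag-tagged TAZ4SA protein in SW872 cells, which RNA counts do not measure. Every direction drawn from these 3 libraries is that of libraries so labelled. WWTR1 was also lower in YAP5SA (68.7 CPM) and in YAP-TFE3 (125.7) and was 180.8 CPM in TAZ-CAMTA1. Of 6 listed adipocyte markers, 3 had enough counts to be tested. ADIPOQ was at 0 in every group mean and FABP4 and LEP were at most 0.633 CPM, while PPARG was between 28.9 and 87.2 CPM. The levels of CEBPA and PLIN1, also listed, are not given here. In YAP5SA against EV, 1 of the 3 tested was called higher and 1 lower. Of 5 listed immune markers, 4 had enough counts to be tested. The group means of their sum over all 5 were between 1.73 and 2.68 CPM, with PTPRC at most 0.0198 CPM. Against EV, 1 of the 4 tested was called lower in YAP5SA and 1 higher in the libraries labelled TAZ4SA.

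FOSL2, JUN and JUND were the main FOS and JUN transcripts at baseline. Per kilobase of exon, the unit in which levels of different genes can be compared, the FOS family in EV was FOSL2 at 67.2 ± 1.8% of its sum and FOSL1 at 28.4 ± 2.96% (SD, n = 3), with FOS at 3.47% and FOSB at 0.986%. The JUN family in EV was split between JUND at 42.5 ± 2.53% and JUN at 39.0 ± 5.85%, with JUNB at 18.6%. The sums were 20.9 ± 0.738 CPM per kb for the FOS family and 29.7 ± 1.77 for the JUN family. FOS remained a minor share of the FOS family in every group. In YAP-TFE3 it was 2.88, 2.46 and 15.7% by library, so that the mean of 7.01 ± 7.51% rests on the third library, and the other libraries of this group lay within the EV range of 2.46 to 4.78%.

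YAP5SA and the libraries labelled TAZ4SA had the highest sums of both families. The FOS family sum was 77.1 ± 14.7 CPM per kb in YAP5SA and 101.5 ± 23.6 in the libraries labelled TAZ4SA, and FOSL1 made up 51.8 ± 3.79% and 65.4 ± 3.67% of it, respectively. In the same order, the JUN family sum was 55.7 ± 5.59 and 70.9 ± 5.93 CPM per kb, with JUN at 64.5 ± 4.33% and 58.0 ± 2.11%. In TAZ-CAMTA1 the makeup moved the other way, with FOSL1 at 18.1 ± 1.48% and FOSL2 at 78.4 ± 1.16% of the FOS family. The sub-confluent groups also carried a FOSL1-rich FOS family, 59.4 ± 5.24% in EVsub and 60.3 ± 7.51% in CAMTA1. These shares are descriptions without a test.

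**Figure D1:**
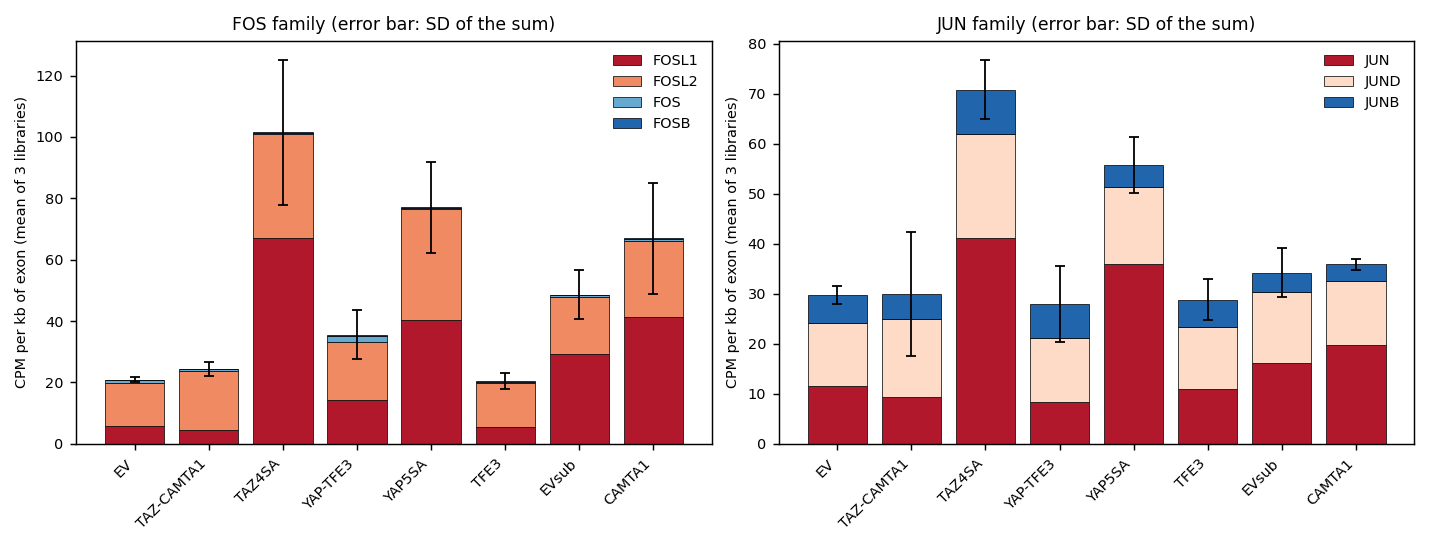
Stacked bars of the mean CPM per kb of exon of the 4 FOS family genes (left) and the 3 JUN family genes (right) in each of the 8 groups, with the SD of the family sum over 3 libraries as the error bar. The FOS family sum goes from 20.9 in EV to 77.1 in YAP5SA and 101.5 in the libraries labelled TAZ4SA, and FOSL1 makes up 51.8% and 65.4% of those bars.

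FOSL1 encodes FRA-1, a FOS protein tied to migration and invasion in many tumours, and it spanned the widest range of the FOS and JUN genes. Its level was 12.1, 12.0 and 9.45 CPM in the 3 EV libraries and 11.3, 11.9 and 7.6 in TFE3. It was 8.7, 9.5 and 7.0 in TAZ-CAMTA1, within or below the EV range. By contrast, it was 87.5, 86.9 and 53.8 CPM in YAP5SA, 153.2, 139.3 and 86.4 in the libraries labelled TAZ4SA and 31.9, 35.0 and 13.6 in YAP-TFE3. All 9 of these libraries lay above every EV library. The sub-confluent libraries were also high, at 56.3, 40.9 and 67.8 CPM in EVsub and 109.1, 75.2 and 49.2 in CAMTA1. In the order of group means, the libraries labelled TAZ4SA stood above CAMTA1 (edgeR adjusted p = 0.0417 over all genes), EVsub stood above YAP-TFE3, and YAP-TFE3 stood above EV. The steps between CAMTA1, YAP5SA and EVsub, and those between EV, TFE3 and TAZ-CAMTA1, did not pass the test.

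FOSL2, which encodes FRA-2, had the smallest relative spread of the FOS genes within EV. It was between 99.4 and 101.5 CPM in EV and between 90.6 and 107.9 in TFE3. It was 277.5, 279.5 and 222.7 CPM in YAP5SA and 260.1, 266.9 and 201.3 in the libraries labelled TAZ4SA, which were the highest groups, with a log2 difference between them of 0.10 ± 0.13 (SE) that did not pass the test. The CAMTA1 libraries came next, at 193.5, 178.4 and 160.5, below the libraries labelled TAZ4SA (edgeR adjusted p = 0.00377) and above TAZ-CAMTA1 (edgeR adjusted p = 0.0233). TAZ-CAMTA1 (124.1 to 148.1 CPM), YAP-TFE3 (104.6 to 156.0) and EVsub (127.2 to 140.0) formed a middle level whose steps did not pass the test, and EVsub stood above TFE3 (edgeR adjusted p = 0.0138).

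FOS and FOSB, the immediate early FOS genes, stayed low. FOS was 1.7, 2.2 and 3.1 CPM in EV, 0.9, 1.0 and 1.2 in YAP5SA, and 3.5, 3.3 and 13.2 in YAP-TFE3. The third YAP-TFE3 library stood apart from its group, and it was also the library with the most EGR1, an immediate early zinc finger gene, at 81.8 CPM against 11.5 and 10.4 in the other YAP-TFE3 libraries. FOSB was 1.4, 1.2 and 2.5 CPM in YAP-TFE3 and at most 1.2 CPM in each library of the other groups. For FOS, only YAP-TFE3 stood above its neighbour in the order of group means, and for FOSB no step between neighbours passed the test.

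JUN, the founding AP-1 subunit, was 47.2, 46.9 and 32.6 CPM in EV. It was 156.8, 161.9 and 129.3 in the libraries labelled TAZ4SA and 125.7, 144.7 and 119.6 in YAP5SA, which stood above every other library of the series, and the step between these groups did not pass the test. The fusions were at the low end, with 28.6, 34.0 and 38.6 CPM in TAZ-CAMTA1 and 23.8, 25.3 and 40.9 in YAP-TFE3. JUNB and JUND, which often act as weaker or opposing partners to JUN, moved less. JUNB was 16.3, 16.0 and 16.7 CPM in the libraries labelled TAZ4SA, 9.5, 9.2 and 11.5 in EV and 6.2, 7.8 and 10.04 in YAP5SA. JUND was 41.9, 41.0 and 37.1 CPM in the libraries labelled TAZ4SA and 25.4, 23.3 and 24.3 in EV. Its highest single value was 51.8 CPM in the third TAZ-CAMTA1 library, whose group mates were at 19.5 and 19.8. No step in the order of group means passed the test for JUNB or JUND.

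Among the zipper partners, MAFF followed an order of its own, with YAP-TFE3 first. It was 70.4, 79.1 and 41.7 CPM in YAP-TFE3 and 4.4, 4.7 and 3.9 in EV. Intermediate levels were found at 27.8, 26.5 and 20.0 CPM in the libraries labelled TAZ4SA and 20.2, 21.8 and 15.5 in YAP5SA. YAP-TFE3 stood above the libraries labelled TAZ4SA by 1.36 on the log2 scale (edgeR adjusted p = 1.3e-06), and YAP5SA stood above CAMTA1 by 1.07. JDP2 was near 100 CPM in the libraries labelled TAZ4SA (99.3, 101.2 and 100.5) and slightly above in YAP5SA (103.6, 109.8 and 118.5), with EV at 15.2, 14.6 and 21.9. The lowest JDP2 values were those of the sub-confluent groups, 8.2, 7.9 and 10.2 CPM in EVsub and 9.9, 8.4 and 6.7 in CAMTA1. BATF3 was 12.6, 11.1 and 11.6 CPM in the libraries labelled TAZ4SA, 4.8, 4.9 and 4.8 in EV and 3.6, 3.7 and 3.2 in TAZ-CAMTA1. For BATF3, the libraries labelled TAZ4SA stood above YAP-TFE3, YAP5SA stood above EVsub, and the other steps did not pass the test. For JDP2, the libraries labelled TAZ4SA stood above YAP-TFE3, YAP-TFE3 above TAZ-CAMTA1 and TFE3 above EVsub.

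**Figure D2:**
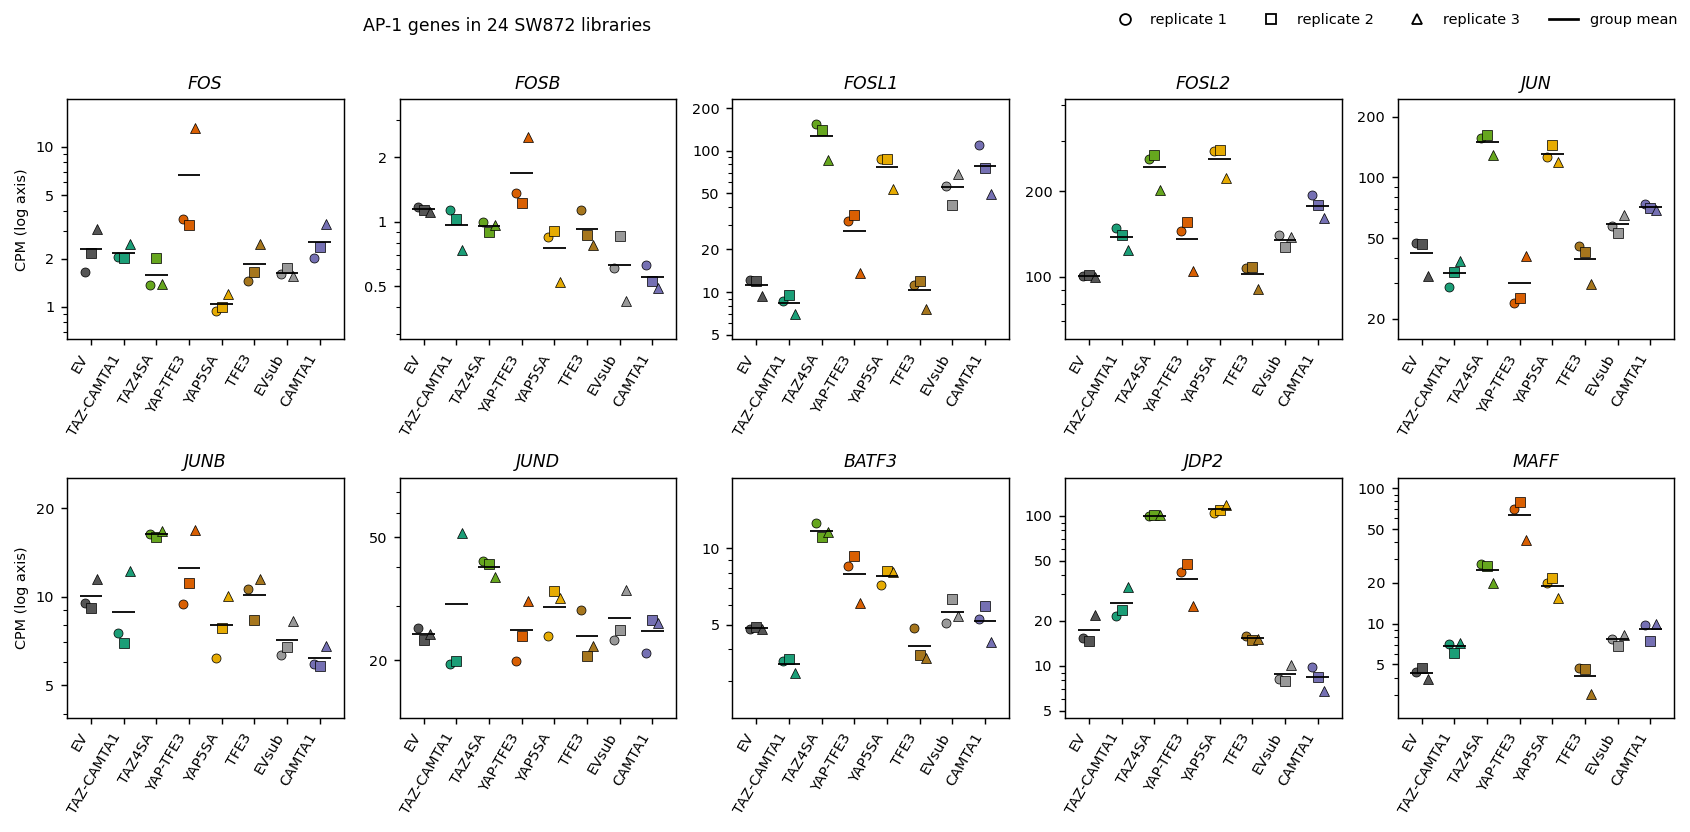
CPM of each of the 10 genes (1 panel per gene, log axis) in the 24 libraries by group, with a circle, square or triangle for replicate 1, 2 or 3 and a line at the group mean. FOSL2, JUN and JDP2 are highest in YAP5SA and the libraries labelled TAZ4SA, FOSL1 is highest in the latter, MAFF is highest in YAP-TFE3, and the triangle of YAP-TFE3 stands apart for FOS at 13.2 CPM.

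The gene models matter for some of these levels, because the study names both a genome alignment and a transcript quantification, and which of them gave the deposited counts, and whether strand was used, was not given in the sources used here. FOS, FOSL1, JUN, JUND and BATF3 overlap no other annotated gene, and FOSB and FOSL2 share no exon bases with the genes they overlap. The exons of MAFF share 326 bp with PLA2G6, those of JUNB 259 bp with HOOK2 and those of JDP2 26 bp with JDP2-AS1, each on the opposite strand. PLA2G6 was 10.3 ± 1.29 CPM in EV, 6.86 ± 0.505 in YAP-TFE3 and 6.36 ± 0.847 in the libraries labelled TAZ4SA, so its mean was lower in groups where that of MAFF was higher. HOOK2 was between 12.0 and 21.5 CPM in the group means. It was lowest in CAMTA1 (12.0) and EVsub (14.3), as was JUNB. In the libraries labelled TAZ4SA, where JUNB was highest, HOOK2 was 18.8 CPM against 20.2 in EV. JDP2-AS1 ran in the direction of JDP2, at 2.51 CPM in YAP5SA and 2.47 in the libraries labelled TAZ4SA. It was 1.61 CPM in EV, 1.07 in CAMTA1 and 0.744 in EVsub. The part of these overlaps in the values was not tested further.

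In TAZ-CAMTA1 against EV, FOSL2 was the 1 member called, higher by 0.45 ± 0.13 on the log2 scale (SE; 1.37-fold; edgeR adjusted p = 0.0384), and the other 9 did not pass the test. Across all tested genes, 4.98% were called in this comparison. The FOSL2 libraries of the groups did not overlap, but the call was lost without any 1 of 3 EV or 3 TAZ-CAMTA1 libraries, with adjusted p between 0.056 and 0.148. JDP2 had a log2 difference of 0.61 ± 0.19 and MAFF of 0.64 ± 0.22, with edgeR adjusted p of 0.0669 and 0.0969. The difference for FOSL1 was -0.43 ± 0.33, for JUN -0.33 ± 0.18 and for BATF3 -0.47 ± 0.16. DESeq2 called FOSL2, JDP2 and MAFF, so 3 members. The median member differed by -0.11 on the log2 scale and the median of all genes by 0.00. JUND turned from 0.33 to -0.31 without the third TAZ-CAMTA1 library, and was called under neither fit.

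The libraries labelled TAZ4SA, where WWTR1 was below its EV level, had the most members called against EV. There, 8 of the 10 members were called and all 8 were higher, 6 of them at least 2-fold, where 49.2% of all tested genes were called. FOSL1 was higher by 3.49 ± 0.33 on the log2 scale (11.2-fold; edgeR adjusted p = 5.05e-09), JDP2 by 2.55 ± 0.20 (5.84-fold), MAFF by 2.51 ± 0.21 (5.68-fold) and JUN by 1.82 ± 0.18 (3.53-fold). BATF3 and FOSL2 were higher by 1.28 ± 0.15 and 1.27 ± 0.13 (both 2.42-fold), and JUND and JUNB by 0.72 ± 0.26 and 0.70 ± 0.21. FOS and FOSB did not pass the test, with log2 differences of -0.51 ± 0.42 and -0.26 ± 0.29. The median member was 1.27 above EV on the log2 scale against -0.03 for all genes. Scaling by total counts, which lowers the median gene by 0.20 in this comparison, left JUNB at 0.51 (edgeR adjusted p = 0.053) and JUND at 0.52 (edgeR adjusted p = 0.104), neither of which passed the threshold. The JUND call was also lost without EV replicate 2 or 3 or the libraries labelled TAZ4SA replicate 1 or 2, with adjusted p between 0.0529 and 0.0645.

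In YAP5SA, the calls covered the late FOS genes, JUN and the 3 zipper partners. Against EV, 6 of the 10 members were called, all higher, where 44.3% of all tested genes were called. FOSL1 was higher by 2.76 ± 0.32 on the log2 scale (6.75-fold; edgeR adjusted p = 1.72e-07), JDP2 by 2.69 ± 0.20 (6.44-fold), MAFF by 2.13 ± 0.21 (4.38-fold), JUN by 1.62 ± 0.18 (3.07-fold), FOSL2 by 1.37 ± 0.13 (2.59-fold) and BATF3 by 0.69 ± 0.15 (1.61-fold). JUND and JUNB had log2 differences of 0.29 ± 0.26 and -0.32 ± 0.21 and did not pass the test. FOS was 0.94 to 1.2 CPM in YAP5SA against 1.66 to 3.05 in EV, with no overlap and a log2 difference of -1.10 ± 0.45 (edgeR adjusted p = 0.0538). That difference passed the threshold in 7 of 14 alternative fits, DESeq2 among them (adjusted p = 0.0181). Scaling by total counts, which lowers the median gene by 0.18 here, gave 6 members higher and 2 lower, the latter FOS at -1.28 and FOSB at -0.80. The summed level of 5 endothelial markers was 25.7 to 34.5 CPM in YAP5SA and 41.9 to 63.4 in the libraries labelled TAZ4SA against 109 to 148 in EV, with 4 and 3 of the 5 called lower and 1 called higher in each and none at 0. That of 6 mesenchymal markers was 1720 to 3267 CPM in YAP5SA, with 2 called higher and 1 lower, and 1698 to 2631 in the libraries labelled TAZ4SA, with 1 higher and 3 lower, against 4533 to 5412 in EV. Of 8 cell cycle markers, 3 were called higher and 0 lower in YAP5SA (summed 1917 to 2008 against 1577 to 1813 CPM in EV). In the libraries labelled TAZ4SA, 3 were higher and 1 lower (summed 1827 to 1873 CPM). The part of any of these lists in the AP-1 levels was not tested.

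In YAP-TFE3 against EV, 6 members were higher and 1 was lower, where 48.2% of all tested genes were called. MAFF led with 3.87 ± 0.22 on the log2 scale (14.6-fold; edgeR adjusted p = 6.9e-13). FOSL1 was higher by 1.25 ± 0.31 (2.38-fold), JDP2 by 1.15 ± 0.19 (2.22-fold), BATF3 by 0.71 ± 0.15 (1.64-fold) and FOSL2 by 0.43 ± 0.13 (1.35-fold). JUN was the member called lower, by 0.49 ± 0.18 (edgeR adjusted p = 0.0266), with overlapping libraries, and this call was lost without EV replicate 1 or 2 or YAP-TFE3 replicate 1 or 2 and in the fit of these 2 groups alone (adjusted p between 0.0814 and 0.144). FOS was higher by 1.57 ± 0.37 (2.96-fold; edgeR adjusted p = 0.00118), and without the third YAP-TFE3 library it was higher by 0.59 (edgeR adjusted p = 0.0447). The FOSL2 call was lost without YAP-TFE3 replicate 2 (0.32; adjusted p = 0.0642). Of 8 cell cycle markers, 7 were lower in this comparison, with summed levels of 694 to 819 CPM in YAP-TFE3 against 1577 to 1813 in EV. Of 5 endothelial markers, 3 were lower (summed 76.7 to 87.7 against 109 to 148 CPM), of 6 mesenchymal markers 4 were lower (3704 to 5164 against 4533 to 5412 CPM), and of 3 adipocyte markers tested 2 were higher (summed over all 6 listed, 64.3 to 104 against 44.2 to 52.6 CPM). The part of these lists in the AP-1 levels was not tested. In bulk RNA, fewer cells with a transcript and less of it per cell cannot be told apart.

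With full-length TFE3, no member difference was detectable at this depth. Against EV, 0 of the 10 members were called by edgeR or DESeq2, and 0 had an unadjusted p under 0.05. Only 0.0350% of all tested genes were called, 7 genes, with 757 at an unadjusted p under 0.05. The largest member difference was -0.29 ± 0.28 on the log2 scale, for FOSB. FOSL1 differed by -0.13 ± 0.32 and MAFF by -0.07 ± 0.22, and the libraries of the groups overlapped for every member. The 6 comparisons against EV share its 3 libraries.

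**Figure D3:**
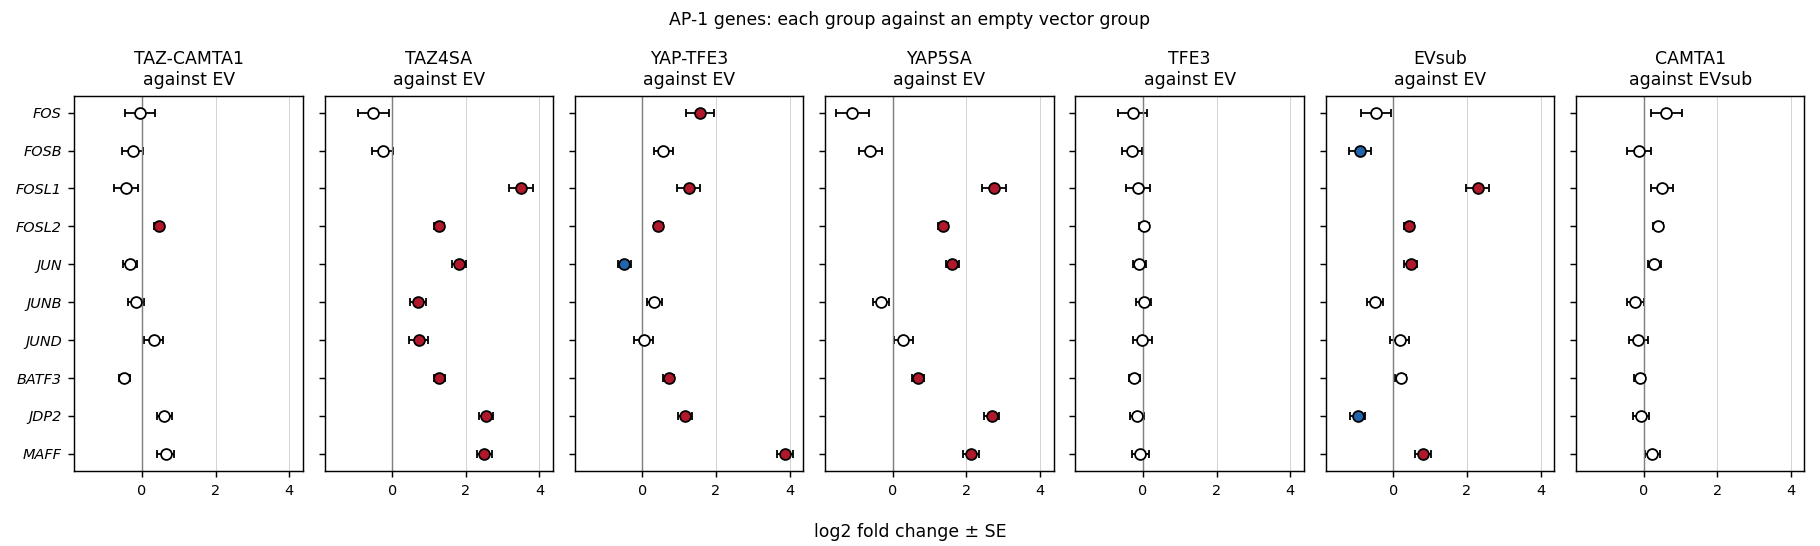
log2 fold change (points) with its standard error (bars) of each of the 10 genes in 7 comparisons against an empty vector group, red where called higher and blue where called lower at an edgeR adjusted p of 0.05, open otherwise. Of 10 genes, 8 are red for the libraries labelled TAZ4SA, 6 for YAP5SA and 6 for YAP-TFE3, which also has JUN in blue, while the TFE3 and CAMTA1 panels hold no filled point.

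Sub-confluent and confluent empty vector cells differed in part of the family. In EVsub against EV, 4 members were higher and 2 were lower, where 36.8% of all tested genes were called. FOSL1 was higher by 2.29 ± 0.32 on the log2 scale (4.90-fold; edgeR adjusted p = 1.2e-05), MAFF by 0.82 ± 0.22 (1.76-fold), JUN by 0.47 ± 0.18 (1.38-fold) and FOSL2 by 0.43 ± 0.13 (1.34-fold). JDP2 was lower by 0.97 ± 0.20 (edgeR adjusted p = 0.000716), and FOSB by 0.91 ± 0.30 (edgeR adjusted p = 0.0224). JDP2 was thus lower in sub-confluent cells, where FOSL1 was higher, whereas both genes were higher in YAP5SA and in the libraries labelled TAZ4SA than in EV. The JUN and FOSB calls were each lost in 5 of 14 alternative fits. JUN was lost without EV replicate 3 and without EVsub replicate 1 or 3, and FOSB without EV replicate 1 or 2 and without EVsub replicate 1 or 3. Of the 8 cell cycle markers, 7 were higher in EVsub, with summed levels of 2802 to 2991 CPM against 1577 to 1813 in EV, and 3 of 5 endothelial markers were lower (summed 42.2 to 65.4 against 109 to 148 CPM), and their part was not tested.

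In CAMTA1 against EVsub, the comparison within sub-confluent cells, 0 of the 10 members were called by edgeR and 0 by DESeq2, where 1.83% of all tested genes were called (366 genes, with 2474 at an unadjusted p under 0.05). FOSL2 was between 160.5 and 193.5 CPM in CAMTA1 against 127.2 to 140.0 in EVsub, a log2 difference of 0.40 ± 0.13 (edgeR adjusted p = 0.131). It passed the threshold with the replicate number as a block (edgeR adjusted p = 0.0298), with only these groups fitted (0.013) and without a filter on low counts (0.0128). FOSL1 differed by 0.50 ± 0.29, called only without the filter (edgeR adjusted p = 0.0016) and without the libraries numbered 3, and FOS by 0.62 ± 0.41. Libraries numbered 3 weighed here: without them, FOSL1 at 0.92, FOSL2 at 0.48 and JUN at 0.39 were called.

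Each fusion was then compared with the phosphorylation-site mutant of its own N-terminal parent, as labelled. In TAZ-CAMTA1 against the libraries labelled TAZ4SA, 7 of the 10 members were called, all lower in the fusion, where 53.7% of all tested genes were called. FOSL1 was lower by 3.91 ± 0.33 on the log2 scale (edgeR adjusted p = 9.97e-10), JUN by 2.15 ± 0.18, JDP2 by 1.93 ± 0.19, MAFF by 1.86 ± 0.20 and BATF3 by 1.75 ± 0.15. JUNB and FOSL2 were lower by 0.87 ± 0.21 and 0.82 ± 0.13. FOS and FOSB did not pass the test (0.46 ± 0.42 and 0.00 ± 0.29). JUND had a difference of -0.39 ± 0.25, and without the third TAZ-CAMTA1 library it was called at -1.06 (edgeR adjusted p = 7.06e-05). Of 5 endothelial markers, 4 were higher and 1 lower in TAZ-CAMTA1 (summed 136 to 183 against 41.9 to 63.4 CPM), and of 6 mesenchymal markers 4 were higher and 1 lower (5506 to 7147 against 1698 to 2631 CPM). Of 8 cell cycle markers, 2 were higher and 3 lower in TAZ-CAMTA1 (summed 1569 to 1781 against 1827 to 1873 CPM). The part of these lists was not tested.

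YAP-TFE3 against YAP5SA split the family. Of 10 members, 4 were higher in the fusion and 4 were lower, where 52.4% of all tested genes were called. The higher genes were FOS by 2.66 ± 0.42 on the log2 scale (6.33-fold; edgeR adjusted p = 9.17e-06), MAFF by 1.74 ± 0.19 (3.33-fold), FOSB by 1.18 ± 0.28 (2.26-fold) and JUNB by 0.63 ± 0.21 (1.55-fold). The lower genes were JUN by 2.11 ± 0.18, JDP2 by 1.54 ± 0.19, FOSL1 by 1.5 ± 0.30 and FOSL2 by 0.94 ± 0.13. In this direct comparison, the immediate early FOS genes and JUNB thus differed in the opposite direction from JUN and the late FOS genes. Against EV, FOS, FOSL1 and FOSL2 were all higher in YAP-TFE3, by 1.57, 1.25 and 0.43, and JUN was lower by 0.49. Without the third YAP-TFE3 library, FOS stayed called at 1.69 (edgeR adjusted p = 1.17e-05), but JUNB was not called (0.36; adjusted p = 0.15). JUNB was also lost without YAP5SA replicate 1 (adjusted p = 0.0918) and with only these 2 groups fitted (edgeR adjusted p = 0.059). FOSB was lost when all libraries numbered 3 were left out (0.56, adjusted p = 0.077). BATF3 and JUND did not pass the test, with log2 differences of 0.03 ± 0.15 and -0.25 ± 0.26. All 8 cell cycle markers were lower in YAP-TFE3 in this comparison (summed 694 to 819 against 1917 to 2008 CPM), while 4 of 5 endothelial markers were higher and 1 lower (76.7 to 87.7 against 25.7 to 34.5 CPM), and their part was not tested.

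Comparing the fusions with each other, 6 of 10 members were lower in TAZ-CAMTA1 than in YAP-TFE3 and 0 were higher, where 42.7% of all tested genes were called. MAFF was lower by 3.23 ± 0.21 on the log2 scale (edgeR adjusted p = 1.1e-11), FOSL1 by 1.68 ± 0.32, FOS by 1.62 ± 0.37, BATF3 by 1.19 ± 0.15, FOSB by 0.82 ± 0.26 and JDP2 by 0.54 ± 0.19. FOS was at -0.64 without the third YAP-TFE3 library (adjusted p = 0.0314), and FOSB was then not called (-0.43; adjusted p = 0.171). FOSB was also lost without TAZ-CAMTA1 replicate 3 (adjusted p = 0.0765) and with only these 2 groups fitted (edgeR adjusted p = 0.083). The JDP2 call was lost in 6 of 14 alternative fits, among them those without TAZ-CAMTA1 replicate 1 or 2 or YAP-TFE3 replicate 1 or 2. FOSL2 and JUN did not pass the test, at 0.02 ± 0.13 and 0.17 ± 0.18, and JUN was called at 0.46 without the third YAP-TFE3 library. JUNB had a difference of -0.48 ± 0.21 (edgeR adjusted p = 0.0621) and was called in 5 of 14 alternative fits, among them that without TAZ-CAMTA1 replicate 3 (-0.80; adjusted p = 0.00374) and that with the replicate block (-0.49; adjusted p = 0.00786). All 8 cell cycle markers were higher in TAZ-CAMTA1 (summed 1569 to 1781 against 694 to 819 CPM), as were 4 of 5 endothelial markers (136 to 183 against 76.7 to 87.7 CPM) and 5 of 6 mesenchymal markers (5506 to 7147 against 3704 to 5164 CPM), and their part was not tested.

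Against full-length TFE3, YAP-TFE3 had 7 of 10 members higher and 0 lower, where 48.0% of all tested genes were called. MAFF was higher by 3.94 ± 0.21 on the log2 scale (15.4-fold; edgeR adjusted p = 4.66e-13), FOS by 1.85 ± 0.37, FOSL1 by 1.38 ± 0.31, JDP2 by 1.32 ± 0.19, BATF3 by 0.94 ± 0.15, FOSB by 0.86 ± 0.26 and FOSL2 by 0.41 ± 0.13. FOSB was not called without the third YAP-TFE3 library (0.47; adjusted p = 0.122), where FOS was at 0.88. FOSL2 was not called without TFE3 replicate 3 or YAP-TFE3 replicate 2. With only these 2 groups fitted, FOSL2 (edgeR adjusted p = 0.0672) and FOSB (edgeR adjusted p = 0.0526) were not called, which left 5 members called. JUN had a difference of -0.39 ± 0.18 and was called at -0.68 without the third YAP-TFE3 library and at -0.56 without TFE3 replicate 3. With total-count scaling JUN was called too, at -0.49, which gave 7 members higher and 1 lower. Of the 8 cell cycle markers, 7 were lower in YAP-TFE3 (summed levels in TFE3 were 1325 to 1880 CPM), as were 3 of 5 endothelial markers (76.7 to 87.7 against 110 to 166 CPM), and their part was not tested.

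Between YAP5SA and the libraries labelled TAZ4SA, JUNB and BATF3 differed. Of 10 members, 2 were called, both higher in the libraries labelled TAZ4SA, where 7.17% of all tested genes were called. JUNB was higher by 1.02 ± 0.21 on the log2 scale (2.03-fold; edgeR adjusted p = 0.00266) and BATF3 by 0.59 ± 0.15 (1.51-fold; edgeR adjusted p = 0.013). The BATF3 call was lost without YAP5SA replicate 1 (adjusted p = 0.0751) or without replicate 1 of the libraries labelled TAZ4SA (adjusted p = 0.0692). FOSL1 was called in 3 of 14 alternative fits, at 0.73 to 0.75. FOSL1 had a difference of 0.73 ± 0.29, JUND of 0.43 ± 0.25, JUN of 0.20 ± 0.17, JDP2 of -0.14 ± 0.18 and FOSL2 of -0.10 ± 0.13.

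**Figure D4:**
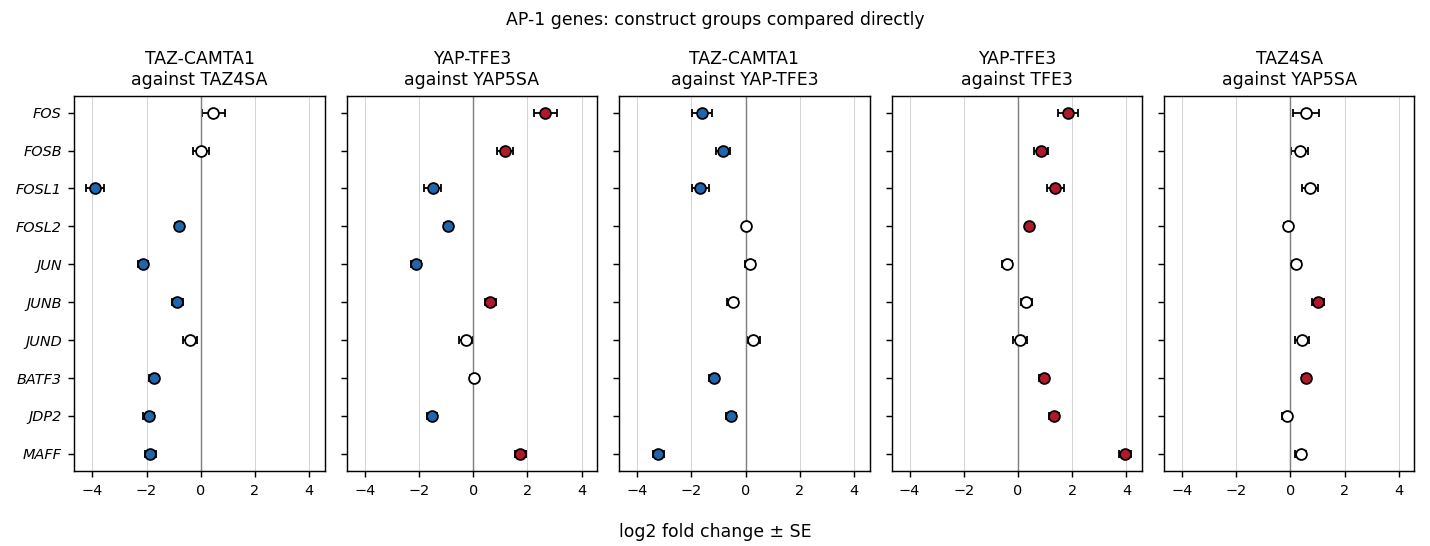
log2 fold change (points) with its standard error (bars) of each of the 10 genes in 5 direct comparisons between construct groups, red where called higher and blue where called lower in the group named first, open where not called. TAZ-CAMTA1 against the libraries labelled TAZ4SA shows 7 blue points, YAP-TFE3 against YAP5SA shows 4 red and 4 blue points, and the comparison of the libraries labelled TAZ4SA with YAP5SA shows 2 red points.

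The libraries numbered 3 deviated alike for several members. FOSL1 and FOSL2 were lowest in library 3 in 7 of 8 groups, and JUNB was highest in library 3 in 8 of 8 groups. The log2 ratio of library 3 to the mean of its group mates for FOSL1 was between -1.30 in YAP-TFE3 and 0.48 in EVsub, and for JUNB between 0.05 in the libraries labelled TAZ4SA and 0.76 in TAZ-CAMTA1. The largest ratio of any member was 1.95, for FOS in YAP-TFE3. The labels give no batch, so this was not assigned to one. Leaving out all 8 libraries numbered 3 kept the direction of every called member difference, but not every call. JUN and FOSB were then not called in EVsub against EV. FOSB also lost its calls in YAP-TFE3 against YAP5SA, TAZ-CAMTA1 against YAP-TFE3 and YAP-TFE3 against TFE3. Other member differences gained a call. FOS in YAP-TFE3 against EV stayed called but went from 1.57 to 0.84 on the log2 scale.

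**Figure D5:**
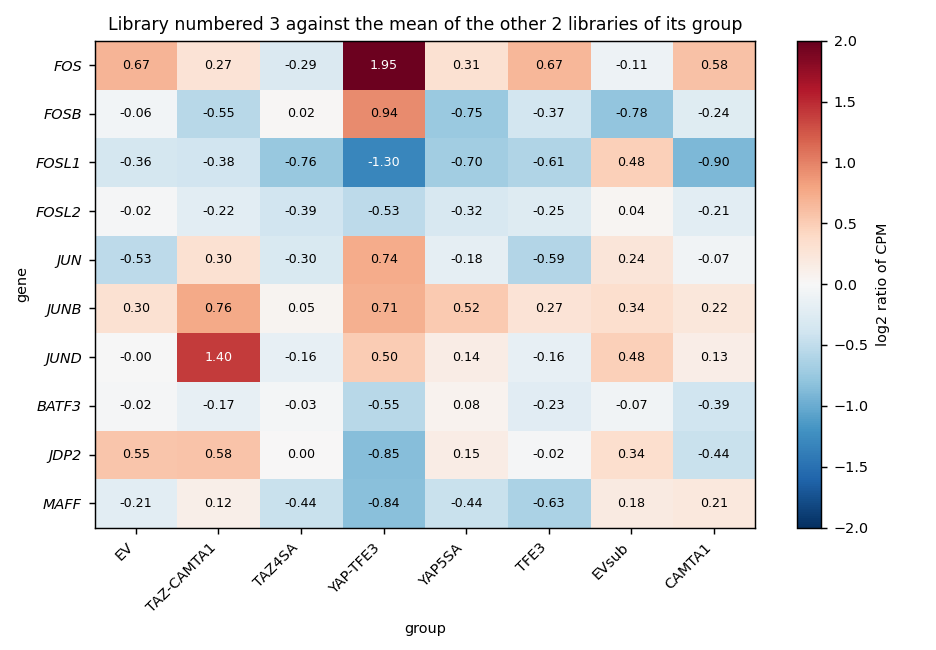
log2 ratio of CPM in the library numbered 3 to the mean of the other 2 libraries of the same group, for the 10 genes (rows) and 8 groups (columns), with red for higher and blue for lower. The JUNB row is above 0 in every group, the FOSL1 and FOSL2 rows are below 0 in 7 of 8 groups, and FOS in YAP-TFE3 has the highest value at 1.95.

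Other genes tied to AP-1 were read from lists of related function. Of 10 other bZIP partners, 9 were tested, and 4 were higher and 4 were lower against EV in each of YAP-TFE3, YAP5SA and the libraries labelled TAZ4SA, against 44.3% to 49.2% of all genes. ATF3, a stress-induced factor that pairs with JUN, was 45.7 CPM in the libraries labelled TAZ4SA, 55.9 in YAP-TFE3 and 45.1 in YAP5SA against 8.69 in EV, higher by 2.40, 2.69 and 2.38 on the log2 scale. MAFK, a small MAF protein related to MAFF, was the 1 partner called in TAZ-CAMTA1 against EV (4.98% of all genes), higher by 1.22 (41.1 against 17.6 CPM; edgeR adjusted p = 3.25e-08).

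Of 17 other immediate early genes tested, 8 were higher and 3 were lower against EV in the libraries labelled TAZ4SA, 8 and 2 in YAP-TFE3, 7 and 3 in YAP5SA, and 0 were called in TAZ-CAMTA1 or TFE3 against EV, where the shares of all genes were 49.2%, 48.2%, 44.3%, 4.98% and 0.0350%. ARC rose by 2.91 on the log2 scale in the libraries labelled TAZ4SA and KLF4, a zinc finger factor, by 2.61 in YAP-TFE3. EGR1 was called higher in YAP-TFE3 by 2.23, a difference carried by the third library (81.8 CPM against 11.5 and 10.4). BTG2, an antiproliferative gene, fell by 1.74 in the libraries labelled TAZ4SA and by 1.45 in YAP5SA. Of 15 kinases and serum response factors upstream of AP-1, 5 rose and 3 fell in the libraries labelled TAZ4SA (49.2% of all genes called), 5 and 4 in YAP-TFE3 (48.2%) and 5 and 4 in YAP5SA (44.3%), while 0 were called in TAZ-CAMTA1 (4.98%) or TFE3 (0.0350%). SRF itself was higher by 0.80 in the libraries labelled TAZ4SA and by 0.67 in YAP5SA.

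Of 15 feedback genes of the MAP kinase pathway, 4 rose and 7 fell in YAP5SA (44.3% of all genes called), 3 and 6 in the libraries labelled TAZ4SA (49.2%), and 5 and 3 in YAP-TFE3 (48.2%). DUSP1, a phosphatase that switches off JNK and p38, was higher by 2.69 on the log2 scale in the libraries labelled TAZ4SA and by 2.46 in YAP5SA. SPRY1 was lower by 3.18 and 3.15 and DUSP6, which acts on ERK, by 1.68 in both. In YAP-TFE3, DUSP5 was higher by 1.43. In TAZ-CAMTA1, 3 of these genes were called, where 4.98% of all genes were, and all 3 were lower, led by DUSP2 at -0.70 and SPRY2 at -0.48.

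Of 13 tested genes known as AP-1 targets, 9 rose and 3 fell in YAP5SA (44.3% of all genes called), 8 and 3 in the libraries labelled TAZ4SA (49.2%), 7 and 2 in YAP-TFE3 (48.2%), 9 and 2 in EVsub against EV (36.8%), and 0 and 2 in TAZ-CAMTA1 (4.98%). PLAUR, the urokinase receptor, was higher by 3.46 on the log2 scale in the libraries labelled TAZ4SA and by 2.65 in YAP5SA. MMP1, the interstitial collagenase, went the other way, lower by 1.76 in the libraries labelled TAZ4SA, by 2.98 in YAP5SA and by 2.12 in TAZ-CAMTA1, from only 1.46 CPM in EV. IL6 was higher by 4.37 in YAP-TFE3, at 2.29 CPM against 0.111 in EV. The lists were described by these counts, and no list was tested as a set.

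Across the 24 libraries, FOSL1, FOSL2 and JUN ran together (Pearson r between 0.80 and 0.84 for their 3 pairs on log2 CPM), and FOS ran against JUN (r = -0.54). These values describe 24 libraries that share 8 group means and carry no test. Among the 12147 genes outside the family that averaged 100 or more counts, the gene most like FOSL1 was SLC12A8 (r = 0.979), like FOSL2 PDLIM1 (0.964), like JUN the noncoding RNA DUBR (0.975) and like JUNB ATG2A (0.913). JUND was most like FADD (0.874), BATF3 most like EIF3C (0.958), JDP2 most like ATF4 (0.973) and MAFF most like SSR3 (0.980). FOS and FOSB were too low to enter this search.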

How the data were processed

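The authors deposited raw whole-number counts for each Ensembl gene, with a table for every library, processed in bcbio-nextgen against hg38. The methods name Hisat2 for alignment, and Salmon with tximport for counts per gene. Which of these gave the deposited counts, whether strand was used and how multiply aligned reads were treated were not given in the sources used here. Groups came from the GEO titles. All 24 libraries were fitted together in edgeR (version 4.0.16, R 4.3.3; quasi-likelihood F test, TMM, 1 mean per group) for genes averaging 5 or more counts, with Benjamini-Hochberg adjustment over 19997 genes and a threshold of 0.05, after tests on simulated data. SEs are the log2 change over the root of F. CPM per kb used the union of exons in GENCODE release 44. DESeq2 1.42.0, other scalings and filters, a replicate block and left-out libraries were alternatives. The 10 members and the lists were chosen with earlier results of these data known. The text names all 10 members, genes that were among the 2 most changed called genes of a list in either direction in a comparison with an empty vector, and the most correlated gene of each member averaging 100 or more counts; some genes that this rule names are not reported here. Construct genes, genes that overlap a member and some cell type markers were also named, whether or not this rule picked them. Counts carry no molecular identifiers, so precision covers counting error and the spread between 3 transductions.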

Additional observations from a re-analysis of the deposited data

How the results depend on the processing

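Of 1680 alternative values of the 10 members in 12 comparisons, 1578 stayed on the same side of the threshold. Another 50 lost a call, 52 gained 1 and 0 reversed a call. Direction was compared only where a difference was called. Uncalled differences could therefore change sign among the 1578, as JUND did in TAZ-CAMTA1 against EV. The number of members called in TAZ-CAMTA1 against EV was 1, and it was 4 with no filter on low counts, 3 with DESeq2, 3 with only these 2 groups fitted, 3 without the libraries numbered 3, and 0 to 1 with 1 library left out. In CAMTA1 against EVsub it was 0, and it was 2 with no filter, 1 with only these groups, 1 with a replicate block and 3 without the libraries numbered 3. In the libraries labelled TAZ4SA against YAP5SA it was 2, and it was 4 with no filter and 1 to 2 with 1 library left out. The cause was not tested. The other 9 comparisons kept their count of members within 1.5 times under every alternative run. Leaving out the libraries numbered 3 was chosen after seeing the data.

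Over all genes, the calls in CAMTA1 against EVsub numbered 366 and went to 742 without the libraries numbered 3, 652 with no filter, 663 with only these groups and 176 to 233 without CAMTA1 replicate 1 or 2 or any 1 EVsub library. In TAZ-CAMTA1 against EV, 996 calls became 545 without TAZ-CAMTA1 replicate 3 and 544 without EV replicate 2. In TFE3 against EV, 7 calls became 40 with no filter, 15 with DESeq2, 2 with only these groups and 1 to 12 with 1 library left out. In the libraries labelled TAZ4SA against YAP5SA, 1434 calls became 901 without replicate 1 of either group and 923 without replicate 2 of the former.

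Over all genes, deviations of same-numbered libraries correlated at -0.30 to 0.37, and no comparison had every pair over 0.1. In 1 of 12 comparisons every library correlated best with its own number. The samples were therefore not treated as paired in the main fit. These values cannot show that no pairing exists, and the libraries numbered 3 deviated alike for several members. With the replicate block, 7 members were called in YAP5SA against EV (6 without it), 7 in EVsub against EV (6), 7 in TAZ-CAMTA1 against YAP-TFE3 (6), 3 in the libraries labelled TAZ4SA against YAP5SA (2) and 1 in CAMTA1 against EVsub (0), and the other 7 comparisons had equal counts. FOSB, at 10 to 86 counts per library, had the least depth.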
